A study of Homo sapiens with 13 samples.

Results

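Messenger RNA levels in K562 cells that had been given 4-thiouridine (4sU) and then kept for 12 h without it were set against those of K562 cells that never received it. K562 is an established human chronic myeloid leukaemia line with a partly erythroid programme. The study followed RNA decay by SLAM-seq, in which 4sU is built into new RNA, alkylated and read as C, and it has 13 libraries, of which 3 are compared here. The cells of 12 h had received 30 µM 4sU for 12 h with the medium changed every 3 h, were washed in cold buffer, and were kept for 12 h in medium with 3 mM uridine (2 libraries, named 12 h). The control library came from K562 cells described only as having no 4sU (1 library, named no 4sU), and the labels do not say whether those cells went through the medium changes, the wash or the uridine. To each RNA 5% of Drosophila S2 RNA was added as a spike-in, and the 3′ ends of the mRNAs were sequenced. The genes described are the human protein-coding genes of the table of all reads, labelled and unlabelled, that passed a filter on low counts. These were 11509 genes of 19443 coding genes in the table.

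4sU is a uridine analogue that cells take up, phosphorylate through the uridine salvage enzymes and place into new transcripts. At high exposure it is known to disturb ribosomal RNA synthesis and to set off nucleolar stress. A chase with excess uridine dilutes the analogue out of the nucleotide pool, so that labelled molecules are lost at the rate at which each mRNA decays and new molecules are unlabelled. After a disturbance, the decay of a gene's mRNA limits how fast its total RNA can fall back.

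The library without 4sU differed from those of 12 h in depth, in its ratio of human to spike-in counts and in its spike-in genes. It had 17425584 counts, against 11507151 and 12820690 in the libraries of 12 h. Labelled reads made up 10.9 and 10.6% of the counts at 12 h and 0.00633% without 4sU. The human counts were 14.96 and 16.34 times the spike-in counts at 12 h and 9.68 times without 4sU, a ratio of 1.62. Counts of 398 of 5839 spike-in genes differed between 12 h and no 4sU (6.82%), although the spike-in RNA came from other cells, while 0 of 5839 were called between 12 h and 8 h at an adjusted p of 0.05 by edgeR (241 at an unadjusted p of 0.05). At a mean of 300 to 1000 counts, 62.9% of human coding genes and 20% of spike-in genes were called, and 14% of coding genes and 3.58% of spike-in genes were at least 2-fold apart. At 1000 to 3000 counts the shares called were 71.9% of coding genes and 43.9% of 82 spike-in genes. The shares at least 2-fold apart were closer there, with 13.133% of coding genes and 10.976% of spike-in genes. At 3000 to 10000 counts they were 11.246% of coding genes and 1.3333% of 75 spike-in genes. Differences between this 1 library and all others that come from its preparation or sequencing cannot be told apart from differences that come from 4sU, and leaving the library out leaves no comparison.

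**Figure D1:**
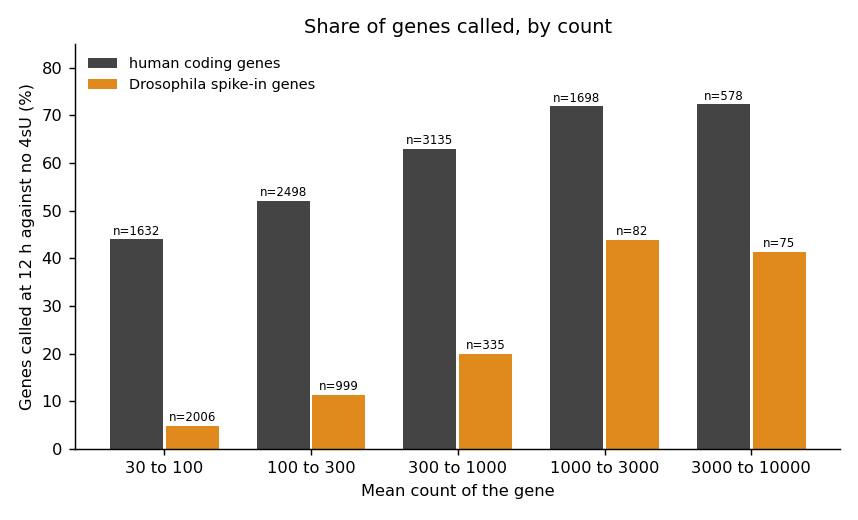
Share of genes called different between 12 h and no 4sU (edgeR, adjusted p of 0.05; y axis, %) by the mean count of the gene over the 3 libraries (x axis), for human coding genes and Drosophila spike-in genes; n is the number of genes in each bar. In the bin of 300 to 1000 counts 62.9% of coding genes and 20% of spike-in genes were called, and both shares are larger at higher counts.

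Promoters are shown for SLC3A2, ASNS and SLC7A1, because these targets of the stress factor ATF4 stayed higher at 12 h and hold the element that ATF4 binds with its partners. They were chosen after their values were seen. The sequences are those of RefSeq on GRCh38.p14, run 5′ to 3′ on the gene's strand from 250 bases before to 50 bases after the annotated start, and the capitals mark the CARE motif (TGATGNAAN, or NTTNCATCA on the other strand).
SLC3A2, chr11:62881449-62881748, plus strand: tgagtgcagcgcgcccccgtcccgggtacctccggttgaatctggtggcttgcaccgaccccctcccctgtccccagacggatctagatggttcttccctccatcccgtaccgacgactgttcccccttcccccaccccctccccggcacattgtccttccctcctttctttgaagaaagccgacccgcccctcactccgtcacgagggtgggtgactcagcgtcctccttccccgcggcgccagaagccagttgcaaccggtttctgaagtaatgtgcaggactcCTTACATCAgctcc
ASNS, chr7:97872359-97872658, minus strand: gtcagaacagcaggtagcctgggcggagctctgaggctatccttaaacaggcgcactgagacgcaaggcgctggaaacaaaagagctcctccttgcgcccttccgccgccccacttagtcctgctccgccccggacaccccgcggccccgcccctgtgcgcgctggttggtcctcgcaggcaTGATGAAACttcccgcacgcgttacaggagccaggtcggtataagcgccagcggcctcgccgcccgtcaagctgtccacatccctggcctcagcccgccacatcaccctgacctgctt
SLC7A1, chr13:29595639-29595938, minus strand: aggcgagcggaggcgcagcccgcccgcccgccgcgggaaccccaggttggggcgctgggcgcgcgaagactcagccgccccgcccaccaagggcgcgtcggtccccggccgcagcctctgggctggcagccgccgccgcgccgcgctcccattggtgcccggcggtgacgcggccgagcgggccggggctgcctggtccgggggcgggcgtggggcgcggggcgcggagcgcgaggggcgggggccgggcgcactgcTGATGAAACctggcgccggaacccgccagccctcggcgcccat
The motif began 37 bases after the start in SLC3A2, 68 bases before it in ASNS and 8 bases after it in SLC7A1. It was found in the windows of 5 of 29 tested ATF4 targets with a promoter sequence (17.2%), against 1.59% of 9385 tested coding genes with one and 3.67% of 27305 promoters in all. A match of letters is a description and not a binding site.

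Of 11509 coding genes, 6246 (54.3%) differed between 12 h and no 4sU at an adjusted p of 0.05 by edgeR's quasi-likelihood test. At 12 h 2622 were higher (22.8%) and 3624 were lower (31.5%). By at least 2-fold, 725 were higher (6.3%) and 1553 were lower (13.5%). The median log2 fold change over all coding genes was −0.08, with the 5th percentile at −1.87 and the 95th at 1.40. The other 5263 genes were called in neither direction, which does not show that they were back. The 95% interval of the fold change lay within 2-fold in either direction for 3514 of these 5263. It did so for 6312 of all 11509 genes, among them 1338 called higher and 1460 called lower. These intervals take the spread of the 1 control library from the other libraries. The split between higher and lower depended on the scaling, and was 3406 higher and 3077 lower when coding genes alone entered the fit. With libraries scaled to their spike-in counts, 7345 of 11320 coding genes tested were higher and 780 lower. Counts of list members with spike-in scaling below are to be read beside these. Those of the chosen test are to be read beside 22.8% higher and 31.5% lower. The spike-in scaling moved the median of all coding genes by 0.90 on the log2 scale, so directions below are relative to the bulk of human mRNA. In bulk RNA, fewer cells of a kind and less RNA per cell cannot be told apart.

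The distance to the cells without 4sU was smaller at 12 h than earlier in the chase. Against the same library, which all these comparisons share, 67.6% of coding genes were called at 0 h (7783 genes). The share was 68.5% after 1 h (7879 genes), 68.2% after 2 h (7845 genes), 66.4% after 4 h (7645 genes) and 60.7% after 8 h (6987 genes), while 6246 genes (54.3%) were called at 12 h. Over 4570 abundant genes the root mean square log2 distance to no 4sU was 0.82 and 0.81 for the libraries of 12 h and 1.08 and 1.10 for those of 0 h, while the replicates of 12 h lay 0.13 apart. Their spike-in genes lay 0.50 from no 4sU at 12 h and 0.54 and 0.57 at 0 h. Between 8 and 12 h, 843 coding genes (7.32%) were higher at 12 h and 580 (5.04%) were lower.

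**Figure D2:**
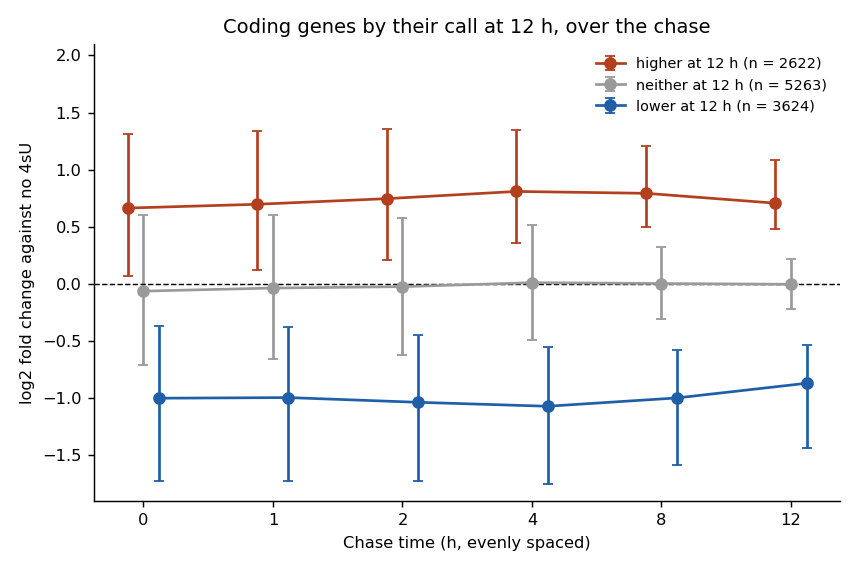
Median log2 fold change against no 4sU (y axis; bars span the quartiles over genes) at each chase time (x axis, h, evenly spaced) for coding genes grouped by their call at 12 h. Genes called higher at 12 h have medians of 0.66 at 0 h and 0.71 at 12 h, genes called lower −1.0 and −0.87, and the quartiles of genes called in neither direction draw in from −0.71 and 0.60 to −0.22 and 0.21.

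Genes called at 12 h had, at the median, been at a similar distance from the start of the chase. Since all times are set against the same 1 library, this cannot be told apart from a deviation of that library alone. Against no 4sU, those called lower had a median log2 of −1.0 at the start of the chase, −1.07 after 4 h and −0.87 after 12 h. Those called higher had 0.66, 0.81 and 0.71 at the same times. Movement within the chase can be read from libraries other than those of 12 h and no 4sU, namely 8 h against 0 h. There 29.8% of all coding genes rose and 25.8% fell. Both comparisons come from 1 fit with a shared filter and estimate of spread, so their calls are not independent. Spike-in genes also differed there, 233 of 5839 (3.99%). Of genes called lower at 12 h, 25.2% had risen by 8 h and 35.5% had fallen, and of those lower by at least 2-fold 14.4% had risen and 34.9% had fallen. Of genes called higher at 12 h, 41.8% had risen by 8 h and 21.7% had fallen.

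Genes of sterol and fatty acid synthesis made up the list with the largest share of members called lower. Of 33 tested, 26 were lower at 12 h, 0 were higher (1 at an unadjusted p of 0.05) and 7 passed in neither direction by edgeR, with a median log2 of −0.89 against −0.08 over all coding genes. With spike-in scaling 11 were lower and 13 higher, with a median of 0.01 against 0.82 over all coding genes. At 0 h the median of this list had been −0.09 against no 4sU. Between 0 and 8 h 29 of 33 fell and 2 rose, where 25.8% of all coding genes fell and 29.8% rose. FADS1, a fatty acid desaturase (chr11:61799625-61829318, minus strand, GRCh38), had 96.8 and 96.7 CPM at 12 h, against 744 CPM without 4sU, where CPM are counts scaled to the same normalised library size. Both libraries of 12 h lay far below the control. Its log2 fold change was −2.94 ± 0.08 (SE; edgeR adjusted p = 2.1e-20), and it had been −0.41 at 0 h. MSMO1, a sterol demethylase of the later pathway, had 10.8 and 11.3 CPM at 12 h and 46.7 CPM without 4sU (log2 −2.08 ± 0.14). LSS, which closes the sterol ring, had 9.76 and 6.44 CPM at 12 h and 35.9 CPM without 4sU. All these genes were lower in both libraries of 12 h than in the control.

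Levels at the start of the chase varied within this list. INSIG1, which holds the sterol sensor in the endoplasmic reticulum, had a log2 of 0.46 against no 4sU at 0 h and −1.72 at 12 h, and SCD, the stearoyl-CoA desaturase, had −0.12 at 0 h and −1.53 at 12 h. Both were chosen after their values were seen. The sterol element (TCACNCCAC, or GTGGNGTGA on the other strand) was found in 1 of 25 promoters of the list (4%), that of SREBF2, and in 1.09% of tested coding genes.

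**Figure D3:**
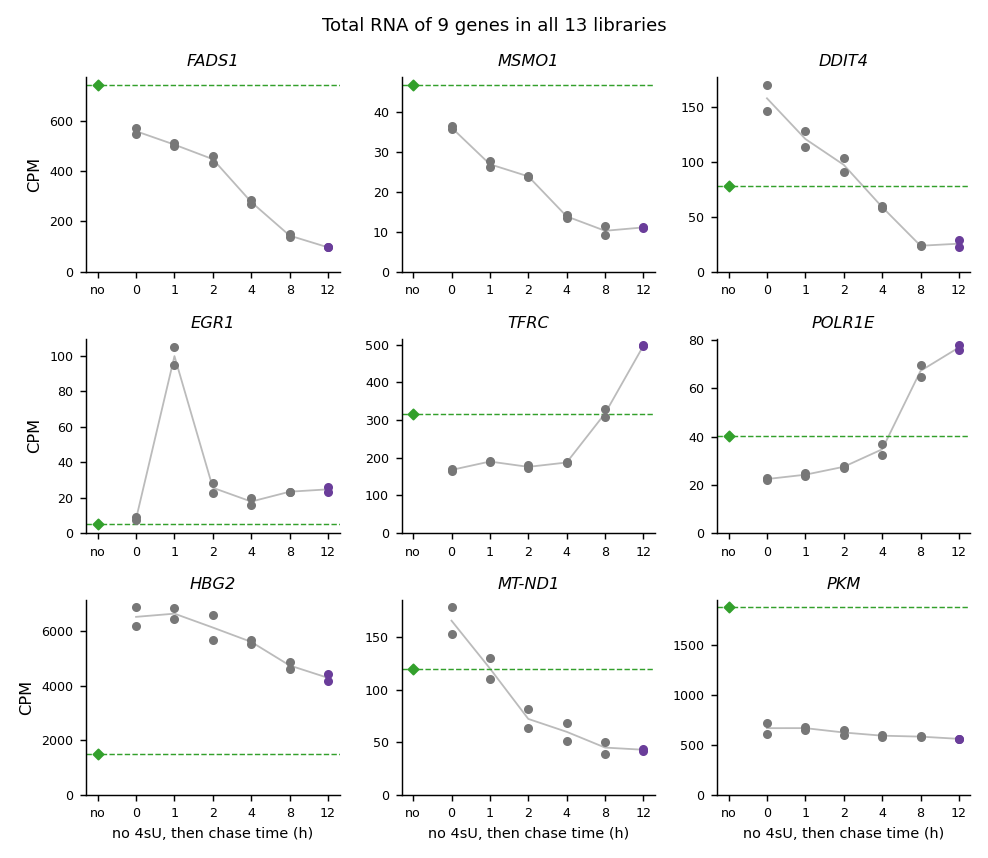
CPM (y axis, from 0) of 9 genes in all 13 libraries, with no 4sU first (green diamond and dashed line, 1 library) and then the chase times in h (x axis; 2 libraries each, 12 h in purple, line through the means). FADS1 and MSMO1 move away from the control during the chase, DDIT4, MT-ND1, TFRC and POLR1E cross its level, EGR1 peaks at 1 h, HBG2 stays above it, and PKM stays below it.

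Interferon response genes were more often called lower than higher. Of 23 tested, 16 were lower, 1 was higher and 6 passed in neither direction (median log2 −1.03), and with spike-in scaling 5 of 19 were lower and 3 higher. IFI6, an interferon-induced mitochondrial protein, had 2.68 and 2.63 CPM at 12 h and 21.9 CPM without 4sU (log2 −3.04 ± 0.25). IFITM2, a membrane protein that restricts virus entry, had 70.5 and 74.6 CPM at 12 h and 433 CPM without 4sU. IFITM3 had 12.8 and 15.0 CPM at 12 h and 80.7 CPM without 4sU. For each of these genes the libraries of 12 h were close to each other and below the control. The IFITM genes resemble each other closely, so their counts may be split between them. EIF2AK2, the kinase PKR that senses double-stranded RNA, was the member called higher, with 53.3 and 55.5 CPM at 12 h and 35.9 CPM without 4sU. At 0 h the list's median had been −0.98, so its distance from the control was similar at the start of the chase.

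Erythroid genes stood higher on balance. Of 47 tested erythroid and haem genes, 21 were higher and 9 were lower (median log2 0.30). With spike-in scaling 38 of 46 were higher and 2 lower, where 7345 of all 11320 coding genes were higher and 780 lower. The median with that scaling was 1.20, against 0.82 over all coding genes. HBG2, a fetal beta-type globin (chr11:5253190-5505605, minus strand), had 4411 and 4152 CPM at 12 h and 1502 CPM without 4sU (log2 1.51 ± 0.09; edgeR adjusted p = 1.2e-13). Its annotated span overlaps another coding gene on the same strand. The near-identical HBG1 had 3259 and 3121 CPM at 12 h and 1814 CPM without 4sU, and the 2 genes summed had a log2 of 1.17. HBG2 had been further above the control at 0 h, with a log2 of 2.12, and fell by 0.46 between 0 and 8 h. HBA1 and HBA2, adult alpha globins of near-identical sequence, summed to a log2 of 1.64. HBE1, the embryonic beta-type globin, had a log2 of 0.26, and HBZ, the embryonic alpha-type globin, had 342 and 331 CPM at 12 h and 372 CPM without 4sU and was called in neither direction.

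Genes for red cell membrane proteins did not move as one. EPB42, a membrane skeleton protein, had 7.65 and 7.09 CPM at 12 h and 0.991 CPM without 4sU (log2 2.88 ± 0.35). ERMAP, a blood group protein, had 39.2 and 36.1 CPM at 12 h and 9.97 CPM without 4sU. In both genes the lower library of 12 h lay above the control. GYPC, a membrane sialoglycoprotein, was lower, with 1336 and 1608 counts at 12 h and 4446 counts without 4sU (log2 −1.28 ± 0.10), and SLC4A1, EPB41, ANK1, RHAG, RHD and RHCE passed in neither direction. These 7 genes were named after their values were seen. The erythroid regulators went both ways, with KLF1 higher at 12 h (151 and 146 CPM, against 108 CPM without 4sU) and GATA1 lower (99.4 and 102 CPM, against 149 CPM), a direction that turned for GATA1 with spike-in scaling (log2 0.33 in place of −0.57). EPOR, the erythropoietin receptor, was lower, with 5.45 and 7.09 CPM at 12 h and 13.1 CPM without 4sU, and lost its call with spike-in scaling (log2 −0.15). ALAS2, the erythroid enzyme that starts haem synthesis, was also lower (log2 −0.78).

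TFRC, the transferrin receptor that brings iron into the cell (chr3:196027183-196082189, minus strand), crossed the level of the control. It had 499 and 496 CPM at 12 h and 316 CPM without 4sU (log2 0.66 ± 0.08), with 165 and 171 CPM at 0 h and 307 and 328 CPM at 8 h. At 0 h its log2 against the control had been −0.91. The libraries of 8 h lay on both sides of the control.

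The lists of markers for other blood cells summed to far less than the K562 markers. The 13 K562 markers were all tested, 8 higher and 3 lower at 12 h, and their summed level was 9827 to 10314 CPM at 12 h and 4719 CPM without 4sU, most of it globin. Of 13 granulocyte and monocyte markers 7 passed the filter, 1 higher and 3 lower, and the whole list summed to 7.47 to 9.44 CPM at 12 h and 19.8 CPM without 4sU, with 7 at 0 without 4sU and none at 0 in all 3 libraries. LYZ, a lysozyme, was most of that sum without 4sU, with 3.91 and 3.58 CPM at 12 h and 16.5 CPM without 4sU. Of 12 megakaryocyte markers 3 passed the filter, the list summing to 8.35 to 11.04 CPM at 12 h and 11.02 CPM without 4sU, and GP1BA, PF4, SELP, CLEC1B and VWF were among those at 0 in all 3 libraries. Of 11 lymphocyte markers 3 passed, the list summing to 35.8 to 36.5 CPM at 12 h and 37.2 CPM without 4sU, and MS4A1 and PAX5 were at 0. CD3D made up most of that sum, with 381 and 412 counts at 12 h and 510 counts without 4sU. What part the markers of other blood cells have in the other differences was not tested.

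Of 36 tested ATF4 targets, 11 were higher and 10 were lower (median log2 0.09), where 22.8% of all coding genes were higher and 31.5% lower. With spike-in scaling 23 of 34 were higher and 3 lower (median log2 0.98, against 0.82 over all coding genes). Amino acid carriers and the synthetase for asparagine were among the higher ones. SLC3A2, the heavy chain shared by several amino acid carriers, had 368 and 376 CPM at 12 h and 117 CPM without 4sU (log2 1.67 ± 0.08). ASNS, asparagine synthetase, had 226 and 251 CPM at 12 h and 90.5 CPM without 4sU, and SLC7A1, a carrier of cationic amino acids, had 104 and 96.1 CPM at 12 h and 47.3 CPM without 4sU. ATF4 itself had 804 and 737 CPM at 12 h and 354 CPM without 4sU (log2 1.12 ± 0.09). These 4 genes were higher in both libraries of 12 h, and of the 5 members whose printed or searched promoter window holds the CARE motif, 4 were higher, AARS1 with a log2 of 0.32 being the fourth. CHAC1, which degrades glutathione and is the other holder of the motif, had 1.47 and 1.32 CPM at 12 h and 1.92 CPM without 4sU, and was called in neither direction at 12 h after a log2 of 3.08 at 0 h.

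Other ATF4 targets were below the control. DDIT4, an inhibitor of mTORC1 signalling that also responds to hypoxia, had 28.6 and 22.2 CPM at 12 h and 77.8 CPM without 4sU (log2 −1.62 ± 0.12), after 146 and 170 CPM at 0 h, so that it had crossed the control level by 4 h, where it had 59.5 and 58.1 CPM. PHGDH, the first enzyme of serine synthesis, had 10.0 and 11.2 CPM at 12 h and 36.6 CPM without 4sU, and CBS, which makes cystathionine, had 4.96 and 4.90 CPM at 12 h and 25.3 CPM without 4sU. SLC7A11 and TRIB3 had log2 values of 2.174 and 1.55 at 0 h and of 0.06 and −0.07 at 12 h, and were called in neither direction at 12 h. ASNS, SLC7A1, ATF4, AARS1, CHAC1, SLC7A11 and TRIB3 were named after their values were seen.

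**Figure D4:**
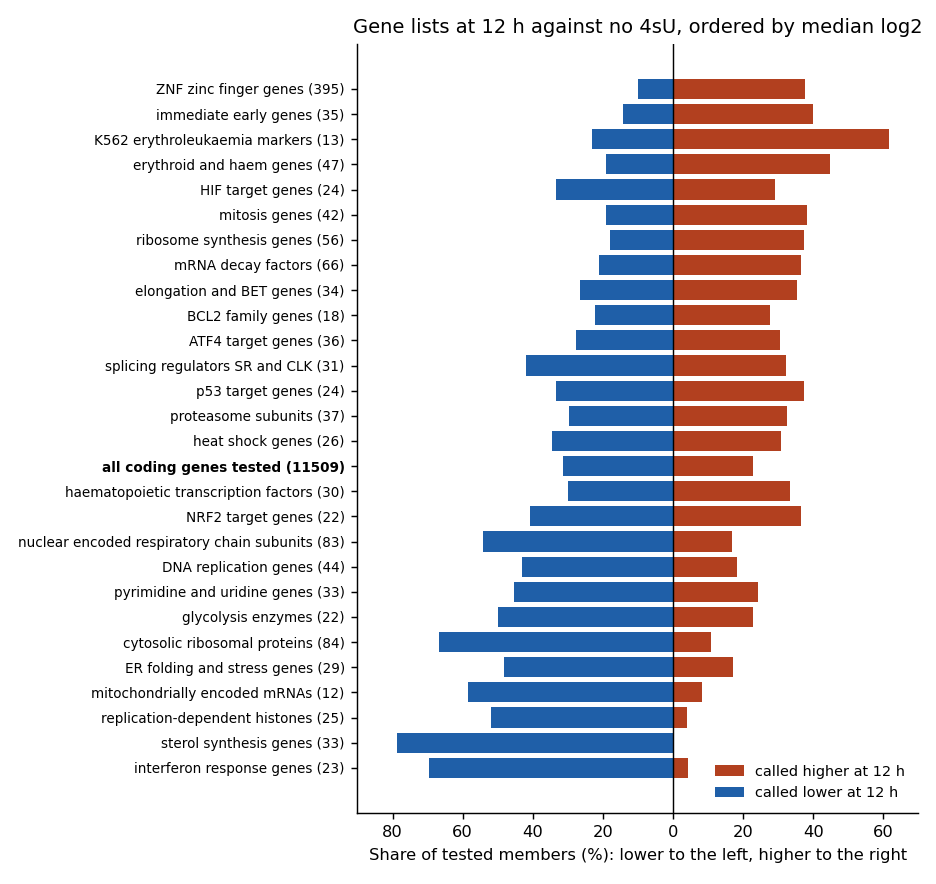
Share of tested members called higher (red, right) and lower (blue, left) at 12 h against no 4sU, in % (x axis), for gene lists with at least 10 tested members, ordered by median log2 from the highest at the top; numbers of tested members are in brackets and all coding genes are in bold. Sterol synthesis, interferon response and cytosolic ribosomal protein genes have the largest shares called lower, and 149 of 395 ZNF genes were called higher.

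Immediate early genes, which are induced within minutes by growth signals and stress, were more often called higher than lower. Of 35 tested, 14 were higher, 5 were lower and 16 passed in neither direction, where 22.8% of all coding genes were higher (median log2 0.45, or 0.38 with a floor of 3 counts for genes at 0). With spike-in scaling 25 of 34 were higher and 2 lower, with a median of 1.36 against 0.82 over all coding genes. EGR1, a zinc finger transcription factor (chr5:138465490-138469315, plus strand), had 26.0 and 23.5 CPM at 12 h and 4.89 CPM without 4sU (log2 2.33 ± 0.20). It had 7.21 and 8.91 CPM at 0 h and 95.1 and 105 CPM at 1 h, and stayed above the control at all later times. KLF6 had 21.9 and 28.4 CPM at 12 h and 10.2 CPM without 4sU. JUNB, an AP-1 subunit, was lower, with 36.3 and 38.2 CPM at 12 h and 94.3 CPM without 4sU. MYC, the growth regulator, had 33.4 and 30.9 CPM at 12 h and 51.1 CPM without 4sU (log2 −0.67 ± 0.15), a direction that turned with spike-in scaling (log2 0.23), and it had been above the control at 0 h (log2 0.88).

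Genes for making ribosomes and genes for the ribosome's own proteins had medians of opposite sign. Of 56 ribosome synthesis genes tested, 21 were higher and 10 lower (median log2 0.17). Between 0 and 8 h 41 of the 56 rose and 10 fell, where 29.8% of all coding genes rose and 25.8% fell. With spike-in scaling 52 of the 56 were higher and 1 was lower, with a median of 1.07 against 0.82 over all coding genes. POLR1E, a subunit of RNA polymerase I (chr9:37485935-37503697, plus strand), had 77.8 and 76.1 CPM at 12 h and 40.3 CPM without 4sU (log2 0.93 ± 0.11), against 21.8 and 22.9 CPM at 0 h. PES1, needed for maturation of the large subunit, had 95.8 and 91.0 CPM at 12 h and 36.2 CPM without 4sU. BOP1, its partner in the same complex, was lower, with 38.3 and 35.2 CPM at 12 h and 102 CPM without 4sU (log2 −1.48 ± 0.11). The E-box (CACGTG, the same on both strands) was found in 17 of 46 promoters of this list (37.0%) and in 10.4% of tested coding genes.

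Of 84 cytosolic ribosomal protein genes tested, 9 were higher and 56 were lower (median log2 −0.39), and with spike-in scaling 60 were higher and 1 lower, with a median of 0.51 against 0.82 over all coding genes. At 0 h the median had been 0.07. Between 0 and 8 h 69 of 84 fell and 2 rose, where 25.8% of all coding genes fell and 29.8% rose. RPL13 had 922 and 929 CPM at 12 h and 2310 CPM without 4sU (log2 −1.32 ± 0.08), and RPS3 had 2841 and 2785 CPM at 12 h and 5938 CPM without 4sU. These genes have many processed pseudogenes, and reads may have moved between copies.

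Nuclear genes of the respiratory chain were also more often lower, with 14 higher and 45 lower of 83 (median log2 −0.23). With spike-in scaling 70 were higher and 2 lower, with a median of 0.67 against 0.82 over all coding genes. UQCRC1, a core subunit of complex III, had 130 and 137 CPM at 12 h and 415 CPM without 4sU (log2 −1.64 ± 0.08). Of 12 mitochondrially encoded mRNAs, 1 was higher and 7 were lower (median log2 −0.68), and with spike-in scaling 6 were higher and 3 lower. These values depend on how reads were given to nuclear copies. From mean CPM, MT-CO1 had a log2 of −6.84, or −0.20 with MTCO1P12 added. MT-CO2 had −1.53 on few counts, or 0.09 with MTCO2P12 added. MT-ND1, a complex I subunit, had 42.0 and 43.5 CPM at 12 h and 120 CPM without 4sU, after 153 and 178 CPM at 0 h. MT-ND6, which is encoded on the other strand, was higher, with 209 and 230 CPM at 12 h and 52.3 CPM without 4sU. All mitochondrial genes together made up 4.33 and 4.45% of the counts at 12 h and 3.01% without 4sU.

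Of 22 tested genes of glycolysis, the breakdown of glucose, 5 were higher and 11 lower (median log2 −0.26), and with spike-in scaling 15 were higher and 4 lower. PKM, pyruvate kinase, had 562.1 and 556.1 CPM at 12 h and 1885 CPM without 4sU (log2 −1.75 ± 0.08). It was at 722 and 611 CPM at 0 h, a log2 of −1.50 against the control, so that most of the gap was present when the chase began. ALDOC, an aldolase, had 23.4 and 23.7 CPM at 12 h and 80.6 CPM without 4sU, and had been at a log2 of −0.24 at 0 h. GAPDH had 2749 and 2690 CPM at 12 h and 2218 CPM without 4sU (log2 0.29 ± 0.09). TALDO1, of the pentose phosphate pathway, had a log2 of −1.19 at 12 h and of −0.50 at 0 h.

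ZNF genes, the large family of zinc finger repressors, were more often higher than lower. Of 395 tested, 149 were higher and 40 were lower, with a median log2 of 0.46 (0.45 with the floor for genes at 0). With spike-in scaling 299 of 391 were higher and 2 lower, with a median of 1.35 against 0.82 over all coding genes. ZNF611 had 13.3 and 15.4 CPM at 12 h and 2.66 CPM without 4sU (log2 2.42 ± 0.25), and ZNF397 had 32.3 and 31.3 CPM at 12 h and 8.05 CPM without 4sU. ZNF467 had the largest fall among members that passed, with 7.24 and 9.73 CPM at 12 h and 52.6 CPM without 4sU. The list's median had been 0.61 at 0 h. Of its 395 tested members, 67 overlap another coding gene on the same strand.

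Replication-dependent histone genes, whose mRNAs mostly lack a poly(A) tail and are therefore poorly caught by these libraries, were lower in 13 of 25 tested and higher in 1 (median log2 −0.83, or −0.76 with the floor for genes at 0). With spike-in scaling 6 of 23 were lower and 5 higher, with a median of 0.07. H3C10 had 12.3 and 12.7 CPM at 12 h and 39.6 CPM without 4sU. H4C3 (chr6:26103876-26104310, plus strand) was the exception, with 91.1 and 74.3 CPM at 12 h and 5.51 CPM without 4sU (log2 3.90 ± 0.21). It was at 65.4 and 75.7 CPM at 0 h, so that it stood above the control throughout. Histone genes of a class are near-identical and their counts are uncertain. Of 44 DNA replication genes, 8 were higher and 19 lower (median log2 −0.23; with spike-in scaling 30 higher and 1 lower), and of 42 mitosis genes 16 were higher and 8 lower (median log2 0.17; with spike-in scaling 38 higher). PLK1, a mitotic kinase, had 504 and 542 CPM at 12 h and 1063 CPM without 4sU. CKS2, a small partner of cyclin-dependent kinases, had 77.6 and 69.6 CPM at 12 h and 21.9 CPM without 4sU.

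Genes of folding and stress in the endoplasmic reticulum were lower in 14 and higher in 5 of 29 (median log2 −0.39), and higher in 17 with spike-in scaling. Heat shock genes were higher in 8 and lower in 9 of 26, where 22.8% of all coding genes were higher and 31.5% lower. With spike-in scaling heat shock genes were higher in 20 and lower in 4. HSPB1, a small heat shock protein, had 760 and 754 CPM at 12 h and 3702 CPM without 4sU (log2 −2.29 ± 0.08). HSPH1, a co-chaperone of HSP70, had 160 and 162 CPM at 12 h and 72.5 CPM without 4sU. HSPA1A, an inducible HSP70 with a near-identical copy, had 207 and 223 CPM at 12 h and 507 CPM without 4sU, and summed with HSPA1B had a log2 of −1.06. The heat shock element (GAANNTTC, the same on both strands) was found in 10 of 24 promoters of this list (41.7%) and in 4.44% of tested coding genes. NRF2 targets were higher in 8 and lower in 9 of 22, HIF targets in 7 and 8 of 24, and p53 targets in 9 and 8 of 24. With spike-in scaling NRF2 targets were higher in 16 and lower in 2, HIF targets in 17 and 1, and p53 targets in 16 and 3. FDXR, a mitochondrial reductase and p53 target, had 18.6 and 22.4 CPM at 12 h and 107 CPM without 4sU. TRIAP1, a small mitochondrial p53 target, had 286 and 292 CPM at 12 h and 123 CPM without 4sU.

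The machinery that makes, reads and degrades mRNA, and the enzymes that handle uridine, were described by the same counts. Of 66 mRNA decay factors, 24 were higher and 14 lower (median log2 0.12; with spike-in scaling 57 higher and 1 lower). CNOT7, a deadenylase subunit, had 245 and 254 CPM at 12 h and 107 CPM without 4sU, and EXOSC5, an exosome subunit, had 51.3 and 54.8 CPM at 12 h and 214 CPM without 4sU (log2 −2.01 ± 0.09). Of 34 elongation and BET genes 12 were higher and 9 lower, and with spike-in scaling 27 were higher and 0 lower. MEPCE and LARP7, which hold the 7SK particle that restrains P-TEFb, were higher, MEPCE with 163 and 179 CPM at 12 h and 53.5 CPM without 4sU, and LARP7 with 118 and 125 CPM at 12 h and 47.5 CPM without 4sU. BRD3, a BET protein, had 64.8 and 72.2 CPM at 12 h and 29.8 CPM without 4sU. Of 33 pyrimidine and uridine genes 8 were higher and 15 lower (median log2 −0.24; with spike-in scaling 19 higher and 2 lower). UCKL1, a uridine-cytidine kinase-like protein, had 14.1 and 16.3 CPM at 12 h and 53.5 CPM without 4sU, and SLC29A2, a nucleoside carrier, had 40.8 and 43.1 CPM at 12 h and 91.1 CPM without 4sU.

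Splicing regulators were higher in 10 and lower in 13 of 31, haematopoietic transcription factors in 10 and 9 of 30, proteasome subunits in 12 and 11 of 37 and BCL2 family genes in 5 and 4 of 18. Over all coding genes 22.8% were higher and 31.5% lower, and no list was tested against these shares. With spike-in scaling splicing regulators were higher in 25 and lower in 1 of 31, haematopoietic transcription factors in 22 and 1 of 30, proteasome subunits in 33 and 0 of 35 and BCL2 family genes in 15 and 0 of 17. SRSF2, a splicing factor, had 160 and 169 CPM at 12 h and 407 CPM without 4sU, after a log2 of 0.13 at 0 h. RUNX1, a haematopoietic regulator, had 49.0 and 49.1 CPM at 12 h and 26.8 CPM without 4sU. BCL2L1, which makes the survival protein BCL-XL, had 51.3 and 54.9 CPM at 12 h and 105 CPM without 4sU. ACTB, often used as a reference gene, had 1766 and 1783 CPM at 12 h and 1096 CPM without 4sU.

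**Figure D5:**
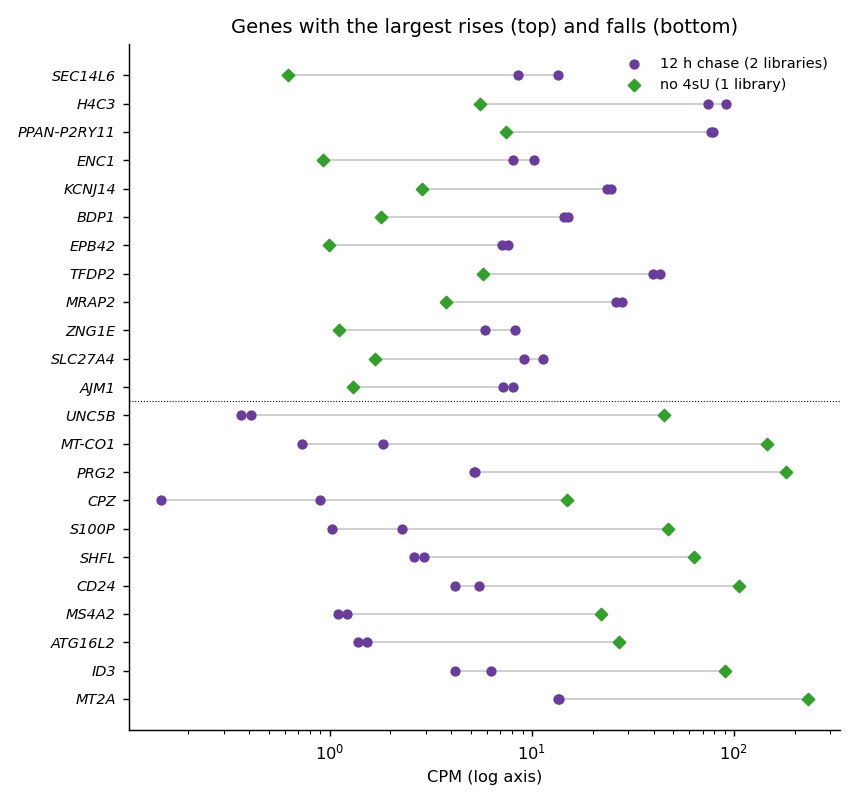
CPM (x axis, log scale) of the genes with the largest rises (above the dotted line) and the largest falls (below it) at 12 h against no 4sU, among called genes with a mean of at least 5 CPM over the 3 libraries; 1 gene is not shown. Purple circles are the 2 libraries of 12 h and green diamonds the library without 4sU. In every row both circles lie on the same side of the diamond, as the choice of genes required.

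Several genes with the largest falls were also low when the chase began. The falls were ranked by the fold change against the 1 control library, which favours a high level there. Some, such as UNC5B and MS4A2, reached the mean of 5 CPM only through that library. UNC5B, a netrin receptor (chr10:71212570-71302864, plus strand), had 5 counts in each library of 12 h and 728 counts without 4sU (0.407 and 0.366 CPM at 12 h, against 45.1 CPM; log2 −6.83 ± 0.36). PRG2, the eosinophil major basic protein (chr11:57386794-57390657, minus strand), had 5.21 and 5.19 CPM at 12 h and 182 CPM without 4sU, and MS4A2, a chain of the IgE receptor of mast cells, had 1.22 and 1.10 CPM at 12 h and 22.1 CPM without 4sU. Against the same control these genes had log2 values of −5.10, −4.46 and −3.33 at 0 h, in the order named. MT2A, a metallothionein that binds metal ions (chr16:56608199-56609497, plus strand), had 13.7 and 13.5 CPM at 12 h and 233 CPM without 4sU, and ID3, an inhibitor of helix-loop-helix factors, had 4.15 and 6.29 CPM at 12 h and 90.7 CPM without 4sU. CD24, a surface glycoprotein, had 4.15 and 5.48 CPM at 12 h and 106 CPM without 4sU. PRG2 overlaps another coding gene on the same strand. The fall of MT-CO1, with 9 and 25 counts at 12 h and 2364 counts without 4sU, depended on how reads were given to a nuclear copy, since with MTCO1P12 added the counts were 10489 and 11642 at 12 h and 15781 without 4sU, a log2 of −0.20.

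Most genes with the largest rises that are named here were at a low level in the control. The ranking used the fold change against this 1 library, so the choice itself favours a low level there. SEC14L6, of a family of lipid carriers (chr22:30522799-30546682, minus strand), had 13.4 and 8.56 CPM at 12 h and 0.619 CPM without 4sU (log2 4.12 ± 0.45), and had been at a log2 of 1.13 at 0 h. ENC1, an actin-binding protein, had 10.3 and 8.12 CPM at 12 h and 0.929 CPM without 4sU, after 0.82 at 0 h on the log2 scale. Both rose between 0 and 8 h, by 2.54 and 2.71 on the log2 scale. BDP1, a subunit of the RNA polymerase III initiation factor, had 15.1 and 14.5 CPM at 12 h and 1.80 CPM without 4sU, and was further from the control at 0 h (log2 4.30) than at 12 h (3.04). TFDP2, the partner of E2F factors, had 43.3 and 39.9 CPM at 12 h and 5.76 CPM without 4sU. PPAN-P2RY11, a read-through transcript, had 77.4 and 78.8 CPM at 12 h and 7.43 CPM without 4sU, and summed with PPAN the log2 was 1.35 in place of 3.39. KCNJ14 and AJM1 overlap other coding genes, and ZNG1E has near-identical copies, with a log2 of 1.51 for the family summed.

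Genes called lower had a smaller median share of labelled reads at the start of the chase, a description with no test. At 0 h, a median of 45.6% of the reads of genes called lower and of 62.1% of those called higher were labelled, against 57.4% over all coding genes, and genes lower by at least 2-fold had 38.5%. The quartiles were 27.2 and 62.1% for genes called lower and 49.7 and 71.0% for genes called higher, so the groups overlapped widely. By 12 h the medians were 5.53% for genes called lower and 5.08% for genes called higher. Genes called lower also had shorter spans, with a median of 21668 bases against 30433 bases over all coding genes and 35155 bases for those called higher. Promoters of 300 bases had a median GC content of 66.3% in genes called lower and 65.0% in genes called higher. On chromosome 22, 44.2% of 278 tested genes were lower and 16.2% higher, while on chromosome 18, 19.2% of 146 were lower and 30.1% higher.

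The filter kept genes by their counts in all 13 libraries. The gene with the lowest mean that passed was THPO, with 16 counts in all, and the one with the highest mean that did not pass was AC013394.1, with 87 counts in all, since a gene needed enough counts in 1 library. Among the 11509 genes, 143 had 0 counts without 4sU and 36 had 0 counts in both libraries of 12 h, and no fold is given for these.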

How the data were processed

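The authors deposited 3 tables of raw counts per gene for 13 libraries (all human reads, reads they call nascent, and Drosophila spike-in reads). Per the submitters' processing notes, the builds were hg38 and dm6 and the tools included Trim Galore 0.6.5, bedtools and bcl2fastq 2.17.1.14. For the aligner, annotation, use of strand and rule for nascent reads, the sources used here give nothing, so genes with overlapping, antisense or near-identical partners are uncertain. Coding genes and spans are those of GENCODE 29 on GRCh38, and a table of gene names paired 19357 of 19443 coding IDs with symbols.

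Counts of all reads in 13 libraries (7 groups: 6 chase times and no 4sU) were tested with edgeR 4.0.16 in R 4.3.3 (filterByExpr, TMM, two-sided quasi-likelihood F-test, p-values adjusted over 16255 genes by Benjamini-Hochberg, threshold 0.05). CPM use TMM library sizes. The single library without 4sU was taken to vary as the others do, whose common biological coefficient of variation was 0.066 with 6 residual degrees of freedom. Each SE is the absolute log2 fold change divided by the square root of the F statistic. The SE therefore rests on this borrowed spread and does not measure that of the library without 4sU. Whether replicates are separate cultures is not in the labels, so p-values measure only how these samples spread, perhaps technically. Floors of 3 counts cover counting error only. On data simulated for this comparison over 16255 genes, edgeR made 16 false calls. It recovered 90% of 100 changes of 1 and 100% of 100 changes of 2 on the log2 scale. Only genes at 5 CPM or more were given a change, so recovery at lower levels was not measured. The simulated library without 4sU varied as the others do. In the real data 398 of 5839 spike-in genes were called, so the false calls do not give the real error rate.

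Named are the 12 largest rises and 12 largest falls among genes that passed, with a mean of at least 5 CPM over the 3 libraries and both libraries of 12 h on the same side, up to 4 passing members with the largest change of each of 30 lists, and MYC, GATA1, TFRC, HBG1, GAPDH and ACTB. Not all are described, some are not reported here, and other genes were named after their values were seen. The members and lists were chosen with earlier results of these data known, and lists were not tested. Alternatives were other size factors, DESeq2 1.42.0, spike-in scaling, other filters, other sets of samples or genes, unlabelled reads, a replicate block and each chase library left out. Tables and figures used Python 3.11.15, pandas 2.3.3, numpy 2.4.6 and matplotlib 3.10.9.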

Additional observations from a re-analysis of the deposited data

Results flagged for a closer look

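The spike-in RNA, which the chosen test of human genes does not use, gave a signal between the libraries compared. Of 5839 Drosophila genes tested with edgeR, 398 passed at an adjusted p of 0.05 between 12 h and no 4sU, 271 higher and 127 lower at 12 h. Between 8 h and 0 h 233 passed, and between 12 h and 8 h 0 passed (241 at an unadjusted p of 0.05). Its part in the calls of human genes was not tested.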

How the results depend on the processing

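The scaling decided the balance of calls. With spike-in totals as library sizes 7345 coding genes were higher and 780 lower at 12 h, in place of 2622 and 3624. With TMM sizes of the spike-in counts, an alternative added after seeing the data, 7945 were higher and 654 lower. The median over all coding genes tested in each setting was shifted by 0.90 and 1.04 on the log2 scale, in that order. All 780 and all 654 were among the genes lower in the chosen test, and 947 and 1320 genes turned from lower to higher. With spike-in totals the log2 of CRELD2 turned to 0.027, of SYVN1 to 0.073, of P4HA2 to 0.12, of MYC to 0.23 and of GATA1 to 0.33. With spike-in TMM sizes it turned to 0.17 for CRELD2, 0.21 for SYVN1, 0.26 for P4HA2, 0.37 for MYC, 0.47 for GATA1, 0.0584 for JUND, 0.0557 for BCL2L1, 0.0624 for SRSF7, 0.0485 for NDUFA2, 0.0155 for PLK1, 0.0155 for PSMC4, 0.0079 for TNFRSF10B, 0.0020 for SRSF9 and 0.0011 for RPL38. The cause was not tested.

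Counts stayed within 1.5 times of the chosen test under the other alternatives. DESeq2 called 2082 higher and 2909 lower, unlabelled reads alone gave 2661 and 3036, a mean of at least 5 CPM gave 2442 and 2847, and only the 3 libraries compared gave 2885 and 4018. With coding genes alone in the fit 52.5% of calls were higher, in place of 42.0%. Leaving out each chase library in turn gave 2258 to 2769 higher and 3122 to 3784 lower, and ratios of human to spike-in counts of 1.55 to 1.69. Replicate numbers were not taken to pair the samples: correlations of same-numbered deviations over 15 pairs of times ran between −0.15 and 0.52, over 0.1 for some pairs of times and under it for others, and the labels name no shared source. A fit with the replicate block called 2678 higher and 3704 lower. Over the 136 named genes and all alternatives, 3051 values kept their direction and call, 45 kept the direction and lost the call and 19 turned, all of these under spike-in scalings. P4HA2 lost its call with DESeq2 (log2 −0.78) and without 12 h replicate 1 (−0.64), and ZNG1E with unlabelled reads (0.87). Without read-through and overlapping genes, also added after seeing the data, 2366 were higher and 3285 lower.

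The comparison rests on 1 library without 4sU, which could not be left out. Its spread was borrowed from the chase libraries, and 398 spike-in genes passed between it and 12 h. Labels do not say whether it was handled in the same batch. Genes with few counts have wide errors, and a gene called in neither direction is not shown to be back at the control level.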
